A study of Macaca fascicularis with 6 samples.

Results

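Immature cartilage, the tissue that lays down the skeleton before it is replaced by bone or matures at a joint surface, differs from adult articular cartilage in the secreted and membrane proteins its chondrocytes make. Growth cartilage is rich in matrilins, adaptor proteins that link collagen fibrils to proteoglycans, in vitamin K-dependent proteins of the Gla type, and in chondromodulin, which keeps cartilage free of vessels. Signals of the bone morphogenetic protein (BMP) family drive its growth, and secreted antagonists limit them. The values below follow 9 genes, of 14020 genes listed, through the making of cartilage from iPS cells and its transplantation into a joint.

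The 9 genes were chosen in 2 ways. *UCMA*, *CHRDL2*, *PZP*, *GRIN2A* and *SEMA7A* were selected on the measured values as the 5 largest falls from pre- to post-transplant cartilage organoids. *MATN1*, *MATN3*, *CNMD* and *SNORC* were added as growth cartilage genes. The fall of the first 5 is therefore a description of how they were picked and is not tested. The name given to the group, immature cartilage genes lost after transplantation, did not hold for all of it. *MATN1* was near 0 in every sample and *SNORC* was not lower after transplantation. *PZP*, *SEMA7A* and *GRIN2A* entered on their fall alone. *PZP* was highest in fibrous tissue of the defect, and *SEMA7A* was near its organoid level there. By level, though not by share of cells, *GRIN2A* was highest in organoid cells with reads of *COL1A1* and none of *COL2A1*.

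The cells came from 5 samples of the cynomolgus monkey. cyiPSC were undifferentiated cells of 1 iPS cell line, which carries EGFP under the constitutive CAG promoter at the AAVS1 locus. Pre-transplant cyiPS-Cart were cartilage organoids grown from this line, with BMP2, TGF-β1 and GDF5 in their chondrogenic culture and again during their enzymatic digestion. Post-transplant cyiPS-Cart were such organoids recovered 4 months after allogeneic transplantation into chondral defects of the knee, in animals 3 to 4 years old. cyAC was intact articular cartilage, and cyFT was the fibrous tissue that formed in defects left empty, both from wild-type animals of the same age. The time given for both is also 4 months. cyAC and the post-transplant organoids were digested without the growth factors (the medium for cyFT is not given), so culture factors, digestion medium and transplantation cannot be told apart. The label of the post-transplant sample gives the genotype of the recipient, wild type, but all 320 of its cells held reads of the GFP transcript, as did all cyiPSC and pre-transplant cells, against 0 of 320 cells in each of cyAC and cyFT (which allows up to 0.938%, taking 3 cells as the limit that a count of 0 allows).

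Each condition was 1 sample. cyiPSC and pre-transplant cells shared a library, cyAC and cyFT shared another, and post-transplant cells had their own, so library and condition cannot be told apart there. The study combined 2 sites of each operated animal for sequencing, but how many animals each tissue sample pools is not given. Summed reads ranged from 11087496 to 29855420 over the 4 samples with 320 cells each, and medians per cell were 58414 reads in pre-transplant, 80336 in post-transplant, 29699 in cyAC and 27500 in cyFT cells. A second table held 2500 cyiPSC and 3527 pre-transplant cells, with medians of 143075 and 59249 reads, and 300 of the 320 pre-transplant cells were in both tables. Libraries shared 0, 2 or 4 cell barcodes. No test between conditions was possible. Intervals are 95% and exact (Poisson for summed reads, Clopper-Pearson for shares, conditional for ratios), and they cover counting error only, since reads copied by PCR are not independent molecules and cells of 1 sample are not replicates. Levels are summed reads of a gene scaled to the total of all listed genes (CPM). CPM are not scaled to transcript length, so each gene is compared with itself across samples and not with other genes.

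Chondrocyte markers were present where the labels lead one to look. *COL2A1*, the fibrillar collagen of cartilage, was at 30156 CPM in pre-transplant, 49488 CPM in post-transplant, 47410 CPM in cyAC and 20777 CPM in cyFT cells, and at 17.8 CPM in cyiPSC. Pluripotency markers summed to 12.4 CPM in pre-transplant and 1.24 CPM in post-transplant cells. The 5 fibroblast markers were summed at 23350 CPM before and 70712 CPM after transplantation, 8371 CPM in cyAC and 46780 CPM in cyFT. From pre- to post-transplant cells *COL1A2* (3861 and 25852 CPM) and *COL3A1* (11792 and 34538 CPM) rose most. *DPT* (668 and 148 CPM) and *PDGFRA* (13.0 and 6.23 CPM) fell. The level of *COL1A1* rose from 7016 to 10168 CPM, but its share of cells fell from 24.1% to 16.9%. *COL3A1* was detected in 98.8% of pre-transplant, 99.4% of post-transplant and 100% of cyAC cells, so the sum does not mark fibroblasts alone. The 3 cycling markers summed to 69.9, 11.4, 2.96 and 70.7 CPM in the 4 samples from pre-transplant to cyFT. Both sums moved with the change from pre- to post-transplant cells, and their part in the values below was not tested. The 3 endothelial markers summed to between 0.282 and 10.9 CPM over the 4 samples.

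*UCMA* encodes a small secreted Gla protein of the distal and resting zones of growth cartilage. It was at 11.2 CPM in cyiPSC, 5324 CPM in pre-transplant, 55.2 CPM in post-transplant, 27.6 CPM in cyAC and 2.89 CPM in cyFT cells. The organoid before transplantation, on whose high level the gene was picked, was far above the other samples. Post-transplant cells and cyAC are not ordered here, because few cells held most of the reads in both and the shares after thinning were 6.56% and 6.49%. The level was 96.5-fold lower after than before transplantation (91.9 to 101.4), a log2 ratio of CPM + 1 of -6.57, and -8.46 without the 5 cells with most reads in each sample. Reads of *UCMA* were found in 88.1% of pre-transplant cells (84.1 to 91.5), 10.3% of post-transplant cells (7.21 to 14.2), 8.75% of cyAC cells and 1.56% of cyFT cells. Among the 3527 pre-transplant cells 85.5% held reads, and among the cyiPSC 5.56%. The iPS cells shared the library of the organoids, and the 5 of them with most reads held 37.6% of their *UCMA* reads. The source of these reads was not tested.

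The remaining *UCMA* of the transplant sat in few cells. The 5 cells with most reads held 76.4% of them, against 8.70% in pre-transplant cells and 59.5% in cyAC. In cyFT only 5 cells held any. All 33 post-transplant cells with *UCMA* reads also held *COL2A1* and GFP reads, as did 97.2% and 100% of the cells without *UCMA*. Of these 33 cells, 27.3% also held *CHRDL2*, against 1.39% of the other 287 cells, at medians of 74130 and 80414 reads. *PRG4*, the lubricant of the joint surface, was at 3812 CPM in the cells with *UCMA* and 993 CPM in those without, although similar shares of both, 78.8% and 70.0%, held its reads. In cyAC it was the reverse, at 1669 CPM in the cells with *UCMA* and 5354 CPM in those without. The authors' background correction did not act alike on this gene: the lowest count above 0 was 15 reads in cyiPSC and pre-transplant cells and 1 read in the other samples. With at least 10 reads required in every sample, the shares were 88.1% before and 5.31% after transplantation.

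*CHRDL2* encodes chordin-like 2, a secreted BMP antagonist of cartilage. It was at 2.00 CPM in cyiPSC, 488 CPM in pre-transplant, 6.73 CPM in post-transplant, 98.9 CPM in cyAC and 64.8 CPM in cyFT cells. The post-transplant cells were the lowest of the 4 cartilage and defect samples, and cyAC lay between the organoid before and after transplantation. Both organoid values entered the choice of the gene, so nothing is read from this order or from the ratio to cyAC below. The fall was 72.5-fold (63.1 to 83.8), a log2 ratio of -5.98 that came to -7.44 without the 5 cells with most reads in each sample, and cyAC was 14.7 times the post-transplant level (12.6 to 17.2). Shares of cells were 58.8% before transplantation, 4.06% after (2.18 to 6.85), 25.6% in cyAC and 17.8% in cyFT. The 5 cells with most reads held 80.1% of the post-transplant reads. The lowest count above 0 was 7 reads before transplantation and 1 read in the other 3 samples, and with at least 10 reads required the shares were 53.8%, 2.19%, 11.2% and 8.12%.

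*PZP* encodes pregnancy zone protein, a protease inhibitor related to alpha-2-macroglobulin. It was at 11.3 CPM in cyiPSC, 105 CPM in pre-transplant, 0.636 CPM in post-transplant, 64.9 CPM in cyAC and 392 CPM in cyFT cells. The defect tissue held the highest level, and the post-transplant value came from 19 reads in 1 cell of 320. The ratio of pre- to post-transplant CPM was 166 (106 to 276). Reads were found in 40.3% of pre-transplant, 21.2% of cyAC and 47.5% of cyFT cells. In the larger table, 42.5% of pre-transplant cells and 32.8% of the more deeply read cyiPSC held *PZP*, and 38.4% and 17.3% did so after thinning to 30967 reads per cell. *A2M*, its near relative, was not among the listed genes, so reads of the pair cannot be told apart and the values of *PZP* are uncertain in that sense.

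*GRIN2A* encodes the GluN2A subunit of the NMDA receptor, a glutamate-gated channel best known from neurons. It was at 1.02 CPM in cyiPSC, 50.9 CPM in pre-transplant and 1.71 CPM in cyFT cells, and at 0 reads in post-transplant cells and in cyAC. A count of 0 allows up to 0.10 CPM in post-transplant cells and 0.254 CPM in cyAC, so the pre-transplant level was at least 507-fold higher than the former and at least 201-fold higher than the latter at a floor of 3 reads per sample. The exact intervals of the 2 ratios to the pre-transplant level are wider and reach 0.00243 and 0.00614. Its pre-transplant level was close to the limit of 50 CPM that the choice of genes required. Reads were found in 39.1% of pre-transplant cells, in 0 of 320 post-transplant cells and in 0 of 320 cyAC cells, each 0 allowing a share of up to 0.938% by the limit of 3 cells and 1.15% by the exact interval, and in 1.56% of cyFT cells.

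*SEMA7A* encodes a semaphorin anchored to the membrane that signals through integrin β1 and plexin C1. It was at 20.5 CPM in cyiPSC, 100.1 CPM in pre-transplant, 1.34 CPM in post-transplant, 29.9 CPM in cyAC and 108 CPM in cyFT cells. The level before transplantation and that in the defect tissue were near each other, with a ratio of 1.08 (1.01 to 1.16). Post-transplant cells, on whose low level the gene was picked, were lower than either. The log2 ratio of defect tissue to organoid, 0.11, turned to -0.43 as a mean of per-cell CPM and to -0.53 after thinning, so no order between the pair is read from it. The fall was 74.7-fold (54.7 to 104.9), a log2 ratio of -5.43 that came to -6.36 without the 5 cells with most reads in each sample. Reads were found in 64.7%, 2.81%, 15.9% and 25.3% of pre-transplant, post-transplant, cyAC and cyFT cells. cyiPSC held them in 51.3% of cells, or 29.1% after thinning against 58.3% of pre-transplant cells.

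*MATN1*, the matrilin of non-articular cartilages, was at 1.18, 1.08, 1.61, 2.03 and 1.71 CPM in cyiPSC, pre-transplant, post-transplant, cyAC and cyFT. These levels rest on 19 to 48 reads in the 320-cell samples, in 2 to 5 cells each. The gene did not pass the filter on low values, and no sample stood out, iPS cells included. The interval of the post- to pre-transplant ratio, 0.888 to 2.56, spans 1.

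*MATN3* encodes the matrilin that is present in growth and, at lower levels, in articular cartilage. It was at 3.28 CPM in cyiPSC, 877 CPM in pre-transplant, 349.9 CPM in post-transplant, 508 CPM in cyAC and 123 CPM in cyFT cells. The transplant was 2.51-fold lower than the organoid (2.45 to 2.57) and lay below cyAC, which was 1.45 times the post-transplant level. Shares of cells were 77.8%, 55.3%, 71.2% and 32.5% in the 4 samples from pre-transplant to cyFT. The lowest count above 0 was 7 reads in both organoid samples and 1 read in cyAC and cyFT, and with at least 10 reads required the shares were 74.1%, 51.6%, 45% and 11.2%. This turned the order of transplant and cyAC, but a fixed minimum weighs on the shallower cyAC cells, and after thinning the shares were 51.2% in the transplant and 66.9% in cyAC.

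*CNMD* encodes chondromodulin, the vessel-repelling membrane protein of avascular cartilage. It was at 1.40 CPM in cyiPSC, 899.6 CPM in pre-transplant, 351 CPM in post-transplant, 630.1 CPM in cyAC and 984 CPM in cyFT cells. The summed level in defect tissue was 1.09 times that of the organoid (1.07 to 1.12), a log2 ratio of 0.13 that turned to -0.48 as a mean of per-cell CPM (633 and 881 CPM) and to -0.37 after thinning. The transplant was 2.56-fold lower than the organoid (2.50 to 2.62). Its reads came from fewer cells in the tissues: 78.4% of pre-transplant, 36.2% of post-transplant, 33.4% of cyAC and 28.8% of cyFT cells. Among cells with reads, the median was 979 CPM before and 657 CPM after transplantation, 1159 CPM in cyAC and 2177 CPM in cyFT.

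*SNORC* encodes a transmembrane chondroitin sulfate proteoglycan of chondrocytes. It was at 6.56 CPM in cyiPSC, 821 CPM in pre-transplant, 1193 CPM in post-transplant, 1673 CPM in cyAC and 782 CPM in cyFT cells. Among the 8 genes past the filter on low values it was the only one not lower in the transplant, with a post-transplant level 1.45 times the pre-transplant one (1.43 to 1.48) and a cyAC level 2.04 times it (2.00 to 2.08). Reads were found in 80.3% of pre-transplant, 83.8% of post-transplant, 98.1% of cyAC and 76.2% of cyFT cells. The lowest counts above 0 were as for *MATN3*, and with at least 10 reads required the shares were 78.8%, 82.2%, 85.0% and 28.1%. The log2 ratio of cyFT to pre-transplant cells, -0.07 on summed reads, was -0.70 as a mean of per-cell CPM and -0.61 after thinning, so the near levels of the pair rest on the sum.

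**Figure D1:**
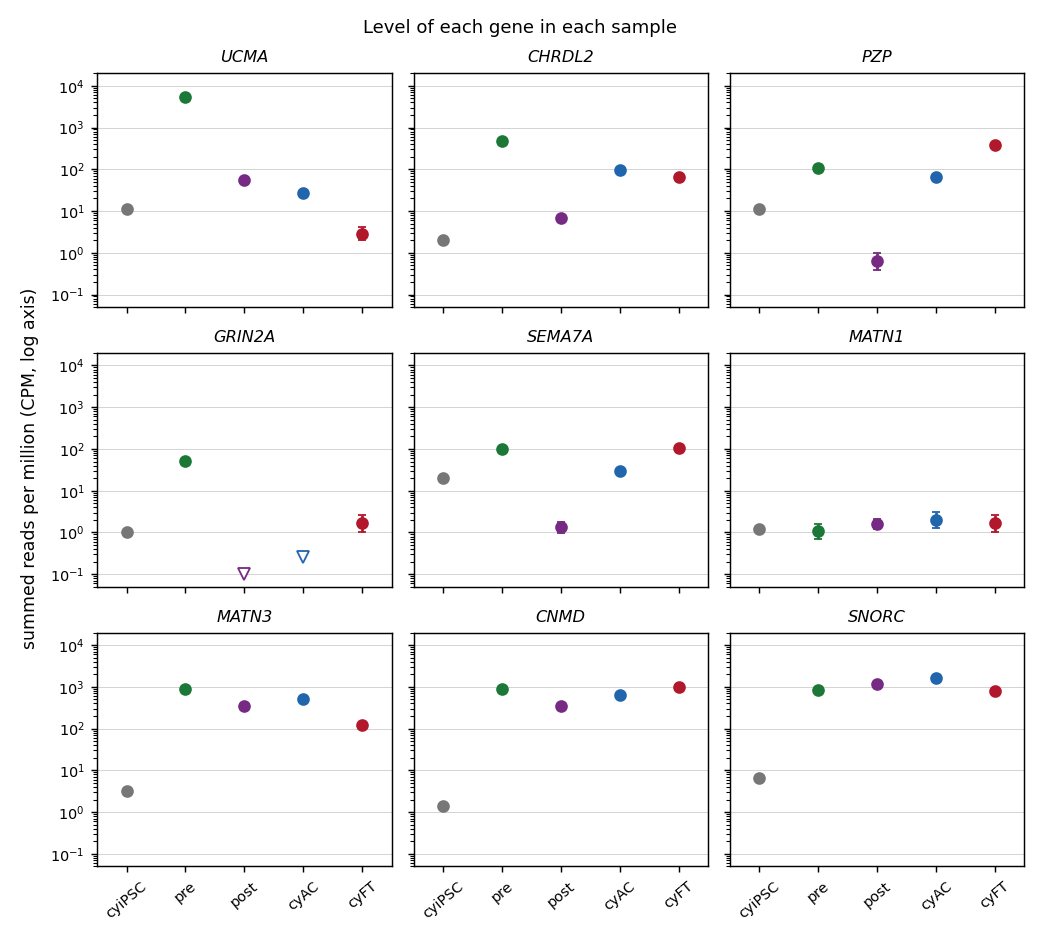
Level of each of the 9 genes (1 panel each) in cyiPSC, pre- and post-transplant cyiPS-Cart, cyAC and cyFT, in summed CPM on a log axis; bars are exact 95% Poisson intervals of counting error, and open triangles mark the limit that 0 reads allow. *UCMA* stands at 5324 CPM before transplantation and 55.2 CPM after, while *SNORC* goes from 821 to 1193 CPM.

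**Figure D2:**
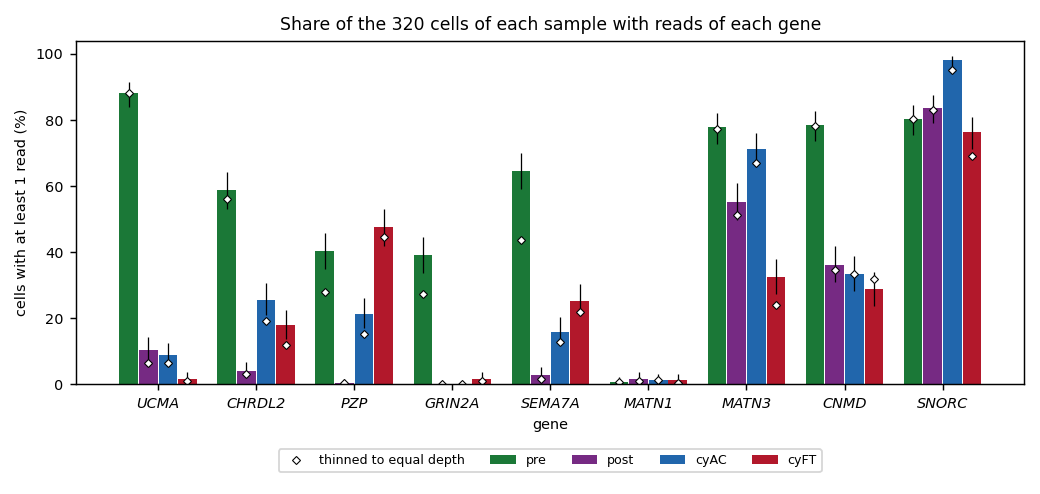
Share of the 320 cells of each sample with at least 1 read of each gene, in percent, with exact 95% intervals; diamonds give the share after each cell was thinned to 12191 reads. Pre-transplant cells stand highest for *UCMA*, *CHRDL2*, *GRIN2A*, *SEMA7A*, *MATN3* and *CNMD*, cyFT for *PZP* and cyAC for *SNORC*.

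The pre-transplant organoid was shallower than the transplant and deeper than cyAC and cyFT, so shares were also taken after thinning each cell to 12191 reads, which left out 0 to 32 cells a sample. *SEMA7A* then had reads in 43.6%, 1.56%, 12.7% and 21.9% of pre-transplant, post-transplant, cyAC and cyFT cells, and *PZP* in 27.9%, 0.312%, 15.3% and 44.4%. *UCMA* kept its share before transplantation, 88.1%, and was at 6.56% after. For the 5 genes picked on their fall, the post-transplant share was below that of the organoid with and without thinning. This largely follows from the choice and is no check of it.

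Read against all genes, the falls of *MATN3* and *CNMD* were near the bulk. Those of the 5 picked genes were far from it by the way they were chosen. A filter kept 3420 genes that reached 50 CPM, and were detected in 25% of cells, before or after transplantation. Of these, 22.1% were lower after transplantation by a log2 ratio of at least 1, 8.13% were higher by as much, and the median log2 ratio was -0.39. 8 of the 9 genes passed this filter and 7 were lower, 5 of them by the way they were chosen. *CNMD*, at -1.35, ranked 399 from the lowest and *MATN3*, at -1.32, ranked 428. Relative to the median of all genes both came to less than 1 in size, at -0.97 and -0.94, and *SNORC* to 0.93. With that centring, 371 genes were lower and 464 higher in place of 756 and 278. Just inside the choice of 5 was *SEMA7A*, at -5.43. Just outside were *LPAR5*, a lysophosphatidic acid receptor, at -5.30 (50.3 and 0.301 CPM), and *CYP1B1*, a cytochrome P450 enzyme, at -5.02 (3109 and 95.2 CPM). The choice rests on the pseudocount: with 10 CPM in place of 1 only *UCMA* and *CHRDL2* were among the 5 largest falls, and with 0.1 CPM 4 of the 5 genes were. It rests on the filter too, since at 10 CPM or with no filter the neuropeptide gene *TAC1* came second and *SEMA7A* was no longer among the 5.

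**Figure D3:**
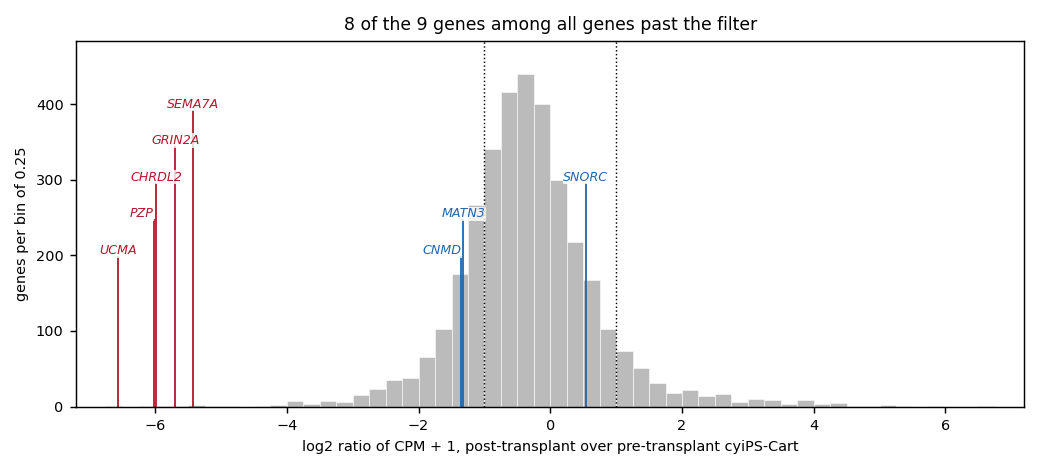
Number of genes by log2 ratio of CPM + 1, post- over pre-transplant cyiPS-Cart, in bins of 0.25 over the 3420 genes past the filter; lines mark 8 of the 9 genes, red for those picked on this ratio and blue for *MATN3*, *CNMD* and *SNORC*, and dotted lines mark -1 and 1. The 5 picked genes lie between -6.57 and -5.43, *MATN3* and *CNMD* within the lower shoulder, and *SNORC* at 0.54.

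The same pre-transplant cells set against the other samples gave a different order of the genes. These comparisons share the pre-transplant sample, whose high values entered the choice of 5 of the genes, so they stand side by side and do not support each other. In cyAC, *UCMA*, *CHRDL2*, *GRIN2A* and *SEMA7A* were lower than in pre-transplant cells by a log2 ratio of at least 1 (-7.54, -2.29, -5.70 and -1.71), where 15.7% of all 3498 genes tested were. *PZP* and *MATN3*, at -0.69 and -0.79, were not, nor was *CNMD* at -0.51, although *MATN3* came to -1.01 after thinning. In cyFT, *UCMA*, *GRIN2A*, *CHRDL2* and *MATN3* were lower (-10.42, -4.26, -2.90 and -2.82), where 10.1% of 3621 genes were, and *PZP* was higher at 1.88, where 12.6% were. *UCMA* and *GRIN2A* in both comparisons, *SEMA7A* in cyAC and *CHRDL2* in cyFT passed the filter only through the pre-transplant sample on which they were picked, so nothing is read from the counts of lower genes. *SNORC* was higher in cyAC at 1.03, where 11.3% of genes were, but came to 0.82 in cells with *COL2A1* and no *COL1A1* reads, 0.99 as a mean of per-cell CPM and 0.98 after thinning. Against cyiPSC, 7 genes passed the filter in the larger table and all were higher in pre-transplant cells by a log2 ratio of at least 1, where 18.4% of 4684 genes were. These genes passed the filter only through the pre-transplant sample, and 4 of them were chosen on high values there, so nothing is read from that count. The log2 ratios ran from 2.15 for *SEMA7A* to 8.70 for *UCMA*. *GRIN2A*, at 44.8 CPM there, fell short of the filter and was 44.0 times its cyiPSC level, and *MATN1* had one of -0.33.

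Native cartilage set against the transplant uses the low post-transplant values that entered the choice of 5 of the genes, so these ratios are given as a description and nothing is read from them. *CHRDL2*, which passed the filter only through cyAC, was the only 1 of 4 genes past the filter that was higher in cyAC by a log2 ratio of at least 1 (3.69), where 17.8% of 3233 genes were. *PZP* and *SEMA7A*, too rare in both samples for the filter, were 102 times (64.8 to 170) and 22.3 times (16.1 to 31.8) the post-transplant level. Between the samples with no organoid cells, cyFT was higher than cyAC in *PZP* (log2 ratio 2.58) and *SEMA7A* (1.82), where 6.99% of 3260 genes were as much higher. Both passed the filter only through cyFT, where they were high, and *SEMA7A* with 25.3% of cells only just, so nothing is read from that count. In the other direction *MATN3* and *SNORC* were lower (-2.04 and -1.10), where 3.74% were as much lower.

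Within the organoid the genes did not all vary together. Across 3527 pre-transplant cells, *UCMA*, *CHRDL2*, *MATN3*, *CNMD* and *SNORC* went together, with Pearson r of log2(per-cell CPM + 1) from 0.33 to 0.73 over their 10 pairs and a median of 0.52, which fell to 0.21 among cells with *COL2A1* and no *COL1A1* reads. *MATN3* with *SNORC* was the closest pair. *PZP*, *GRIN2A* and *SEMA7A* stood apart from these 5, with r from -0.10 to 0.23 over 15 pairs, and from each other, with r from 0.02 to 0.16. The values describe cells of 1 library, they carry no test, and weak values in sparse counts are no finding. The split into these groups was made after the values were seen. The r of the 9 genes with log2 reads per cell was at most 0.17. Over all 36 pairs the median r was 0.03.

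Detection was split in part the same way. Of the 3016 pre-transplant cells with *UCMA*, 86.1% also held *MATN3*, against 10.6% of cells without *UCMA*. For *SNORC* these shares were 89.3% and 18.4%. For *SEMA7A* they were 63.7% and 58.5%, and for *GRIN2A* 36.4% and 38.6%. *PZP* went with *UCMA* and *CHRDL2* in detection, at 44.5% of cells with *UCMA* against 30.5% of those without and 48.9% of cells with *CHRDL2* against 32.5%. A median of 6 of the 9 genes was detected per pre-transplant cell, and 72.3% of cells held at least 5. After transplantation the median was 2, and 3 of 320 cells held 5 or more. cyAC had a median of 3, with 8.75% of cells at 5 or more, and cyFT a median of 2, with 16.2%. After thinning the medians were 5, 2, 2 and 2 in the 4 samples of 320 cells, and 65.2%, 0.625%, 4.87% and 10.4% of cells held at least 5. As 5 of the 9 genes were picked on their fall, low post-transplant counts largely follow from the choice, and nothing is read from them.

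The 5 genes that went together followed the collagen state of the cell. Pre-transplant cells were sorted by reads of *COL2A1* and of *COL1A1*, the collagen of fibrous tissue, as the authors' correction left them: 2588 cells held only *COL2A1*, 674 both, 254 only *COL1A1* and 11 neither, at medians of 56356, 72110, 53338 and 22172 reads. *UCMA* was at 6372 CPM in cells with only *COL2A1*, 2476 CPM in those with both and 132 CPM in those with only *COL1A1*. *MATN3* was at 1195, 216 and 3.71 CPM, *SNORC* at 1053, 234 and 8.75 CPM, and *CNMD* at 1053, 416 and 35.8 CPM in the same order. *CHRDL2* was at 528, 261 and 53.6 CPM.

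The 3 others did not follow it. *GRIN2A* ran the opposite way in summed level, at 38.2, 58.1 and 68.7 CPM. Its share of cells was highest with both collagens, at 32.9%, 49.4% and 43.3%, or 29.6%, 43.7% and 41.5% after thinning. *PZP* was at 106, 111 and 60.6 CPM and *SEMA7A* at 91.3, 114 and 64.1 CPM. Cells with only *COL1A1* made up 7.20% of cells and held 10.5% of *GRIN2A* and 0.179% of *UCMA* reads.

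After transplantation 265 of 320 cells held only *COL2A1*. Within cells with *COL2A1* and no *COL1A1* reads, the log2 ratio from pre- to post-transplant cells was -1.44 for *MATN3*, -1.41 for *CNMD* and 0.39 for *SNORC*, and the 5 genes picked on their fall lay between -6.73 and -5.23. *MATN3* was at 422 CPM in the 265 cells and 17.6 CPM in the 47 cells with both collagens, *CNMD* at 418 and 47.3 CPM, and *SNORC* at 1395 and 303 CPM. In bulk sums, fewer cells with a gene and less RNA per cell cannot be told apart, so shares of cells stand beside the levels above.

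Defect tissue put the genes into other company. In cyFT, 84 cells held only *COL2A1*, 33 both, 170 only *COL1A1* and 33 neither, at medians of 47802, 32528, 21830 and 26220 reads. The 84 cells carried 97.6% of *CNMD*, 95.7% of *SEMA7A*, 93.7% of *MATN3* and 93.1% of *SNORC* reads. *CNMD* was at 2377 CPM in them and 5.08 CPM in the 170 cells with only *COL1A1*. *SEMA7A* was at 256 and 6.47 CPM, and it had reads in 77.4% and 5.29% of those cells, or 63.1% and 4.17% after thinning. The r of *SEMA7A* with *CNMD* was 0.68 across the 320 cells of cyFT, where it was -0.02 in pre-transplant cells, and with *COL2A1* it was 0.60 against 0.04. Depth moved with these genes in cyFT (r of 0.44 for *SEMA7A* and 0.46 for both *CNMD* and *COL2A1* with log2 reads per cell), and its part in the correlations was not tested.

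*UCMA* was at 3.12 CPM in these 84 cells and had reads in 3.57% of them, where *SNORC* was at 1801 CPM and had reads in all. *PZP* was found in every class of cyFT cells, at 498, 136, 220 and 885 CPM in the order given above. It differed with markers of other cells in both directions: the 16 cyFT cells with reads of at least 2 of 4 immune markers had 1257 CPM of *PZP* against 325 CPM in the rest, and the 11 cells with at least 2 of 3 osteoblast markers had 1115 CPM against 328 CPM. The 224 cells with at least 2 of 5 fibroblast markers had 219 CPM against 635 CPM, the 5 cells with at least 2 cycling markers 85.1 against 397 CPM, and the 11 cells with at least 2 hypertrophic markers 265 against 399.5 CPM. The immune markers summed to 379 CPM in cyFT and to between 4.13 and 24.6 CPM in the other 3 samples, with *CD14* at 247 CPM and *CD3E* at 0 reads in cyFT. Their part in the *PZP* level was not tested, and it was 325 CPM without those cells.

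In native cartilage *CNMD* was low in the cells with most *PRG4*. In the 80 cyAC cells with the lowest *PRG4* CPM, *CNMD* was at 1330 CPM with reads in 53.8% of cells (42.2 to 65.0). In the 80 cells with the highest, it was at 64.0 CPM with reads in 6.25% (2.06 to 14.0). *UCMA* was at 14.5 and 17.9 CPM in the same cells, *PZP* at 74.5 and 30.6 CPM, *SEMA7A* at 41.2 and 19.4 CPM, *CHRDL2* at 127 and 83 CPM, *SNORC* at 1907 and 1295 CPM and *MATN3* at 474 and 467 CPM. *PZP* had reads in 21.2% of both sets of cells, *SEMA7A* in 18.8% and 7.50%, *UCMA* in 10.0% and 5.00% and *CHRDL2* in 35.0% and 18.8%. The medians of reads per cell were 33106 and 29047. Across the 320 cells the r of *CNMD* with *PRG4* was -0.41, and that of every other gene detected there lay between -0.10 and 0.07. In post-transplant cells the r of *CNMD* with *PRG4* was 0.01.

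**Figure D4:**
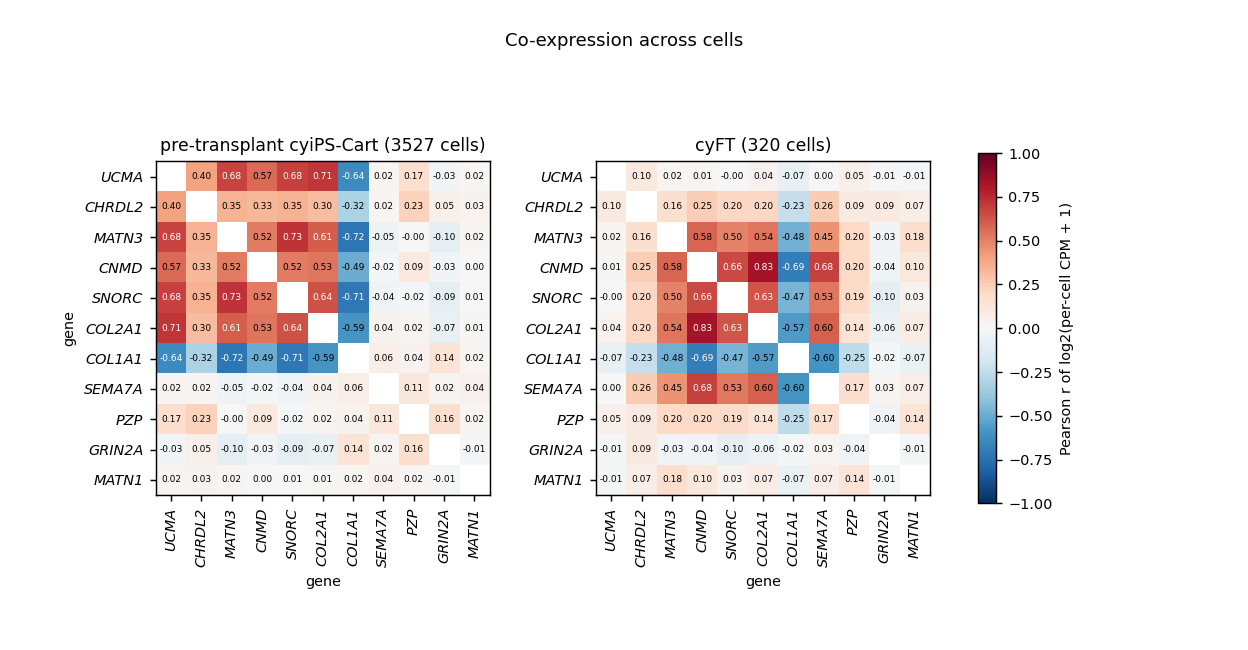
Pearson r of log2(per-cell CPM + 1) between the 9 genes, *COL2A1* and *COL1A1* across 3527 pre-transplant cells (left) and 320 cyFT cells (right), on a colour scale from -1 to 1. *UCMA* belongs to the positive block on the left (r of 0.71 with *COL2A1*) and not on the right (0.04), and *SEMA7A* the reverse (0.04 and 0.60).

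**Figure D5:**
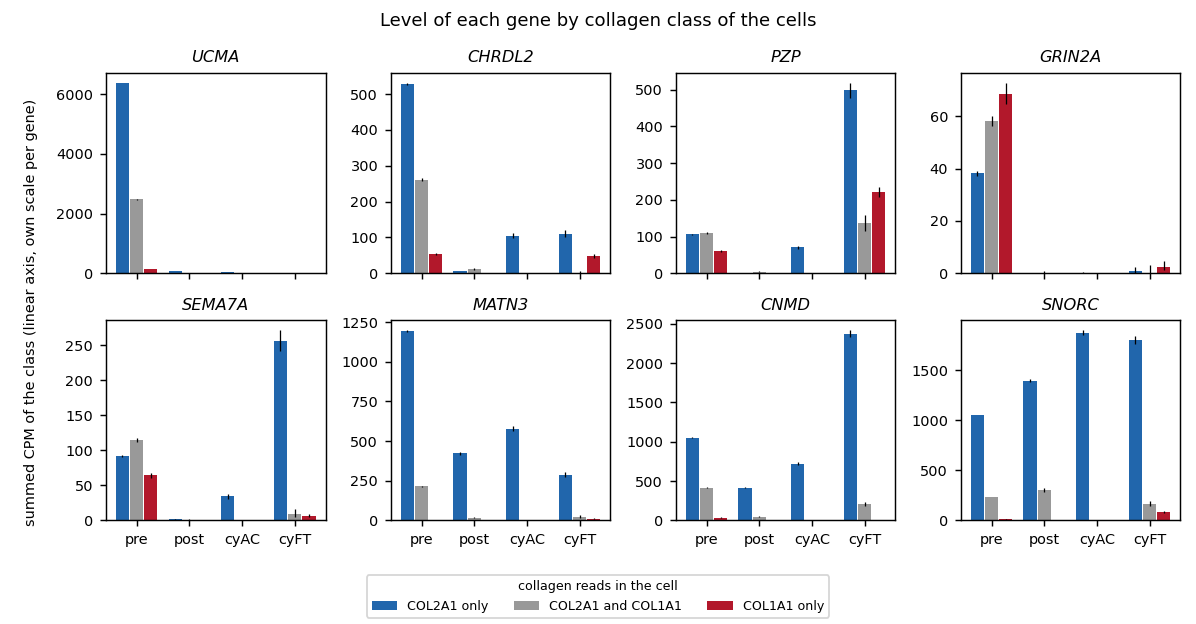
Summed CPM of 8 of the 9 genes in cells with only *COL2A1*, both collagens or only *COL1A1*, for pre-transplant cyiPS-Cart (larger table), post-transplant cyiPS-Cart, cyAC and cyFT, on a linear axis with its own scale in each panel; bars are exact 95% Poisson intervals, and classes under 20 cells are not drawn. *GRIN2A* is highest in cells with only *COL1A1* before transplantation (68.7 CPM), and *SEMA7A* and *CNMD* are highest in the *COL2A1*-only cells of cyFT (256 and 2377 CPM).

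The genes most like each member were sought over the 3107 genes past the filter in the 3527 pre-transplant cells, by the highest Pearson r. Angiotensinogen, *AGT*, came first or second for *UCMA* (0.73), *SNORC* (0.68), *MATN3* (0.69), *CNMD* (0.56) and *CHRDL2* (0.40). It was at 2226 CPM before and 190.0 CPM after transplantation and 10.6 CPM in cyAC. *COL2A1* followed for *UCMA* (0.71) and *SNORC* (0.64), the iron transporter gene *SLC11A2* led for *MATN3* (0.71), the collagen gene *COL9A1* followed for *CNMD* (0.55), and *RBP4*, a retinol carrier, for *CHRDL2* (0.40). *PZP* was nearest to *FBN2*, a fibrillin of developing tissue (0.30), and to *MGP*, the matrix Gla protein (0.29). *SEMA7A* was nearest to the protease gene *PRSS23* and the integrin gene *ITGA5* (both 0.30). *GRIN2A* was nearest to *POSTN* and *THBS2* (0.16 and 0.14), matrix proteins of fibrous tissue, and *MATN1* had no r above 0.06.

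Lists of related genes were drawn up with earlier results of these data known and are described by their counts and medians. Among other growth cartilage genes, 10 of 13 listed passed the filter, with a median log2 ratio of 0.78 from pre- to post-transplant cells against -0.39 for all genes. Counts of genes past the fold in this and the next lists stand against 22.1% of all genes lower and 8.13% higher. Calls in these lists are not centred on the median of all genes, and with that centring some genes near the fold change theirs. *EPYC*, a small proteoglycan of growth cartilage, was lower (53.9 and 14.6 CPM). *PTHLH* (7.98 and 136 CPM) and *FGFR3* (75.7 and 473 CPM), which both act in growth plate signalling, were higher, as were *ITGA10*, a collagen receptor (82.6 and 255 CPM), and *FRZB*, a WNT antagonist (519.7 and 1455 CPM). *SOX9*, at 483 and 785 CPM, was not past the fold, except relative to the median of all genes.

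Of other matrilins and the matrix partners they bind, all 8 listed genes passed the filter, with a median of 0.86, and 4 were higher and 0 lower by the fold. *DCN* was at 193 CPM before and 6282 CPM after transplantation, and *BGN*, *COL9A1* and *COL9A2* were also higher (log2 ratios of 1.54, 1.04 and 1.01). *COL2A1* and *ACAN* (0.71 and 0.68) were not past the fold, except relative to the median of all genes. The 2 remaining matrilins listed were at 177 and 131 CPM (*MATN2*) and 313 and 201 CPM (*MATN4*), and *MATN4* was at 10.9 CPM in cyAC.

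The Gla proteins also parted. *MGP* went from 688 CPM before to 5092 CPM after transplantation, against 4594 CPM in cyAC, the opposite course to *UCMA*. *GAS6* was higher (93.1 and 199.7 CPM). *GGCX*, the carboxylase that modifies all of these proteins, was lower (73.4 and 33.8 CPM), a call that centring on the median of all genes takes away. Of 9 BMP antagonists listed besides *CHRDL2*, 5 passed the filter, 0 were lower and 1, the receptor decoy *BAMBI*, was higher (140.0 and 294 CPM), with a median of -0.12, counts too small to set apart from the shares over all genes.

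The families of the other picked genes were quiet or mixed. None of 14 other ionotropic glutamate receptor genes passed the filter in either sample, and their sum was 23.0 CPM before and 6.40 CPM after transplantation. Of 4 genes of the alpha-2-macroglobulin family and its receptor, 3 passed the filter and 0 were past the fold in either direction, with a median of -0.13. Among 19 semaphorins and *SEMA7A* receptors, 5 passed the filter. *SEMA3A* was lower (130.3 and 64.1 CPM), a call that centring on the median of all genes takes away. *SEMA3B* (5.68 and 61.1 CPM) and *SEMA3D* (12.4 and 74.8 CPM) were higher, and the receptor gene *ITGB1* was at 712 and 496 CPM.

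Among angiogenesis inhibitors besides *CNMD*, 3 of 7 listed genes passed the filter, with a median of -1.42, and 2 of them, *THBS2* (686 and 230.0 CPM) and *TIMP3* (1439 and 537 CPM), were lower, although *TIMP3* had reads in 74.7% of cells before and 90% after transplantation. Of 12 genes of the articular surface, 9 passed the filter, with a median of 1.26, and 5 were higher and 1 lower by the fold. *ERG*, *GSN* and *THBS4* (0.09, 0.08 and -0.37) were not past it. *CILP* (25.7 and 734 CPM), *CLU* (438 and 2140 CPM), *ABI3BP* (85.6 and 347 CPM) and *CILP2* (28.6 and 92.9 CPM) were higher, as was *PRG4* (538 and 1289 CPM), and *CHI3L1*, a secreted chitinase-like protein, was lower (1168 and 63.9 CPM).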

How the data were processed

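Counts of reads, by gene and cell, were deposited by the authors as 1 table of cyiPSC and pre-transplant cells and 1 table of 4 samples reduced to 320 cells each. Single-cell libraries were made by TAS-Seq on BD Rhapsody beads. Per the study's methods, reads were assigned with Bowtie2 to Ensembl cynomolgus cDNA and ncRNA sequences, samples were separated by hashtag, counts taken for diffused background were set to 0 in highly expressed genes, and cells above a mitochondrial threshold were removed. That correction differs between libraries and lowers shares where its limit was high. The submitters' processing notes name cutadapt 3.4, Bowtie2 2.4.2 and R 3.6.3. No step that counts molecular identifiers is described, so counts were taken as reads. Cells were put in samples by the tag and library in their names.

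Reads were summed per sample and scaled to CPM over all listed genes. A gene counted as detected in a cell at 1 read. Log2 ratios are of CPM + 1, over genes that reached 50 CPM, and were detected in 25% of cells, in 1 of the samples compared, and a ratio of at least 1 in size was called. The genes named are the 9 members, the 2 genes just outside the 5 largest falls, the 2 genes most like each member, and listed genes past filter and fold, up to 4 per direction; *SOX9*, *MATN2*, *MATN4*, *ITGB1*, *COL2A1*, *ACAN* and *PRG4* in their lists, *TAC1*, *ERG*, *GSN*, *THBS4* and single markers were named after their values were seen. The members and lists were chosen with earlier results of these data known. Symbols were used as listed, and 8 of 9 members had an entry in a RefSeq table of another assembly (*PZP* had none), so no coordinates or sequences are given. Scripts used Python 3.11.15, NumPy 2.4.6, SciPy 1.17.1, Scanpy 1.11.5 (scrublet) and, for TMM factors only, edgeR 4.0.16; steps were tested on simulated data. Alternatives were other cell sets, scalings, pseudocounts, filters, minimum reads and thinning. The hashtag libraries hold no transcriptome and were not used here.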

Additional observations from a re-analysis of the deposited data

How the results depend on the processing

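No paired analysis was possible because each condition was 1 sample. From pre- to post-transplant cells the median of the 9 genes is, by the choice of 5 of them, the smallest of the picked falls, so its size and its steadiness restate that choice. This median log2 ratio was -5.43 and lay between -5.50 and -5.23 with cells of *COL2A1* and no *COL1A1* reads, the larger set of pre-transplant cells, CPM without mitochondrial genes, TMM factors, or without marked doublets. It was -5.02 as a mean of per-cell CPM, -4.55 after thinning, -2.61 with a pseudocount of 10 CPM and -6.12 with one of 0.1 CPM. Of the alternatives chosen after seeing the data, centring on all genes gave -5.05, pre-transplant cells not among the 320 gave -5.35, and leaving out the 5 cells with most reads of a gene gave -5.46, which hides moves of *UCMA* to -8.46, *CHRDL2* to -7.44 and *SEMA7A* to -6.36. For cyAC over pre-transplant cells the median was -0.79, and it was -0.98 in *COL2A1*-only cells, -0.68 with TMM factors, -0.99 as a mean of per-cell CPM and -1.01 after thinning. The median difference in the share of cells, post- minus pre-transplant, was -40.0 percentage points, -22.5 with a minimum of 10 reads and -27.6 after thinning. The share of genes called lower was 22.1%, 18.5% at 10 CPM and 15.9% without a filter. Under TMM factors 508 genes were lower and 374 higher, and the median of all genes was shifted up by 0.22. The median r of 36 pairs moved little, from 0.03 to at most 0.04, but that of the 5 genes that went together fell from 0.52 to 0.21 in *COL2A1*-only cells. Single genes that turned were *MATN1* in *COL2A1*-only cells (from 0.33 to -0.20 after transplantation, from 0.54 to -0.32 in cyAC) and, in cyFT over pre-transplant cells, *SEMA7A* and *CNMD* as means of per-cell CPM (-0.43 and -0.48) and after thinning (-0.53 and -0.37), alternatives also chosen after seeing the data; none of these was past the fold. *SNORC* there went from -0.07 to -0.70 and -0.61 in the same order. Of the values of single genes and pairs under alternatives, 125 stayed within their counting error and 86 moved past it. Scrublet marked 26 of the 320 pre-transplant cells and 0 of the 3527 of the larger table, so its marks there were not used. The cause of these shifts was not tested, apart from the pseudocount, which pulls low levels together by construction.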
